A study of Homo sapiens with 2 samples.

Results

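The genes of cholesterol and fatty acid synthesis that are controlled by the sterol regulatory element-binding proteins (SREBPs) were analyzed in mock- and DAC-treated HCT116 cells. They were chosen by gene name, and all 29 names were found in both count tables, among 33538 listed genes. The line HCT116 derives from a human colon carcinoma, and DAC (decitabine) is a nucleoside analog that depletes DNA methyltransferases and lowers DNA methylation over cell divisions. In the treated group 0.5 μM DAC was given on day 1 and again on day 3 after seeding on day 0, drug-free medium followed on day 5, and the harvest was on day 7. Mock-treated cells of the same line went through the schedule with no drug. Each condition had 1 droplet scRNA-seq library, so the conditions could not be compared by a test, and every interval below is a 95% interval that covers counting error only. UMIs of a gene can cluster in few cells, which makes such intervals too narrow. The label was checked by 7 epithelial markers. *KRT18* was present at 2030 and 4280 CPM (UMIs scaled to 1000000 UMIs of the library) and *EPCAM* at 349 and 222 CPM in mock- and DAC-treated cells, *KRT8*, *KRT19* and *CDH1* were at 21.1 CPM or more in both, *CLDN4* was at 86.9 and 27.3 CPM, and *VIL1*, a marker of intestinal epithelium, was only at 0.741 and 1.05 CPM.

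SREBPs are transcription factors held in the endoplasmic reticulum membrane as inactive precursors. When sterols run low, SCAP escorts them to the Golgi, where proteases release the active fragment, which enters the nucleus, and INSIG proteins hold the complex back when sterols are plentiful. SREBP-2, encoded by *SREBF2*, acts mainly on cholesterol synthesis, and SREBP-1, encoded by *SREBF1*, acts mainly on fatty acid synthesis. SREBPs bind sterol regulatory elements (SREs) together with partners such as NF-Y, which binds the CCAAT box.

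Promoter windows, from 250 bases before to 50 bases after the 1 start listed for a gene, were taken from RefSeq (GRCh38.p14) for 26 of the 29 genes. For *FADS1*, *FADS2*, *ACLY*, *DHCR7* and *ACSS2* this start lies well inside the gene as GENCODE draws it, so the window is that of 1 of several possible starts. No entry was matched for *FDFT1*, *SQLE* and *FASN*. In these windows CCAAT, searched on both strands, was present in 18 of 26 genes (69.2%), and 2 copies or more were present in 12 (46.2%). Among all 35116 windows of the same length, 34.6% held CCAAT and 10.8% held 2 copies or more. A canonical SRE written as TCACNCCAC, also searched on both strands, was present only in *SREBF2* among the 26, and in 1.13% of all windows. Other spellings of the SRE were not searched, so SRE below means a match to this spelling. The number of CpG dinucleotides, the target of DNA methylation, had a median of 27.5 in the 26 windows, with a range from 4 in *ACSS2* to 53 in *ACACA*, and a median of 14 in all windows. Methylation was not measured in these libraries. The windows of 5 genes are shown because genes far to either side and the only SRE are among them: *HMGCS1* (chr5:43313363-43313662, minus strand), *EBP* (chrX:48521558-48521857, plus strand), *SREBF2* (chr22:41832855-41833154, plus strand), *TM7SF2* (chr11:65111622-65111921, plus strand) and *SCD* (chr10:100346983-100347282, plus strand). Each is written 5′ to 3′ on the strand of its gene. Capitals mark CCAAT, its reverse complement ATTGG, and the SRE.
HMGCS1: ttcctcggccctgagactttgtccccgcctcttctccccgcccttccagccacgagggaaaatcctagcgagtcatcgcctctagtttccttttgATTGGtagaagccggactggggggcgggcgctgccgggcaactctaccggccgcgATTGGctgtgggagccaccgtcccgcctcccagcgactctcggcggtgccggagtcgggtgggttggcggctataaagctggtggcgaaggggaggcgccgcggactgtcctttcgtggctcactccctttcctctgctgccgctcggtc
EBP: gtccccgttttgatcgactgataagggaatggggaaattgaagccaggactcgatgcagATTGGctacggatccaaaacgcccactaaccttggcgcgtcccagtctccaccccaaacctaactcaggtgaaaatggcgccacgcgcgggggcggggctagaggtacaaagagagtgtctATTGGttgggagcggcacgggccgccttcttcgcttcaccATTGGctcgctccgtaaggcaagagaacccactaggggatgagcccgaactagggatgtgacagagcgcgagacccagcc
SREBF2: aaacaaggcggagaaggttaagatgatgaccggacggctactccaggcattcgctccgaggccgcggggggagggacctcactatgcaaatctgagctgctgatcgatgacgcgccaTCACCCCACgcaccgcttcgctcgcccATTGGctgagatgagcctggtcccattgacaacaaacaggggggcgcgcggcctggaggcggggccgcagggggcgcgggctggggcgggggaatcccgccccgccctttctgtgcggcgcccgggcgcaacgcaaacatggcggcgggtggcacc
TM7SF2: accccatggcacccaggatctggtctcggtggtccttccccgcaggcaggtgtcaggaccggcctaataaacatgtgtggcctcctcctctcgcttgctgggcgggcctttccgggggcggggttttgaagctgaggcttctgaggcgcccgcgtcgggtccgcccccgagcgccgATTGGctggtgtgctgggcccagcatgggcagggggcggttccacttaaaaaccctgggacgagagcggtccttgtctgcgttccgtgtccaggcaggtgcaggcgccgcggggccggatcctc
SCD: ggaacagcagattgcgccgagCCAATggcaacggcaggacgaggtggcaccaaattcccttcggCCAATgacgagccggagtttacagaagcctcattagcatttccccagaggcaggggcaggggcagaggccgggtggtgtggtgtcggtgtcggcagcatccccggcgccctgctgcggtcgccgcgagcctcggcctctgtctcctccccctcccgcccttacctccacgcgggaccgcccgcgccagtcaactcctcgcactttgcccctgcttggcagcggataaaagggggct
*HMGCS1* carried 2 CCAAT boxes and no match to TCACNCCAC in this window, and *EBP* carried 3 CCAAT boxes. The SRE of *SREBF2* lay 133 bases before the start and its CCAAT box 106 bases before it. *TM7SF2* and *SCD*, both lower in DAC-treated cells, also carried CCAAT.

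The mock-treated library held 1783 cells with 49911689 UMIs (median 27899 per cell), and the DAC-treated library held 1751 cells with 59046165 UMIs (median 35340 per cell). The 29 genes together accounted for 47343 UMIs of the mock-treated and 59185 UMIs of the DAC-treated library. The median of 12170 genes with 200 UMIs or more over both libraries was 0.21 on the log2 scale of the CPM ratio, so changes are also given relative to this median gene. Of the 29 genes, 10 were 1.5-fold or more higher in DAC-treated cells, beside 29% of all genes, and 8 were 1.5-fold or more lower, beside 13.7% of all genes. At 2-fold, 3 were higher, beside 13.8%, and 2 were lower, beside 6.33%. Relative to the median gene, 6 were 1.5-fold or more higher (all genes, 19.6%) and 10 were lower (all genes, 20.4%). At 1.5-fold the share lower was above that of all genes, and at 2-fold it was close to it, with no test of either.

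**Figure D1:**
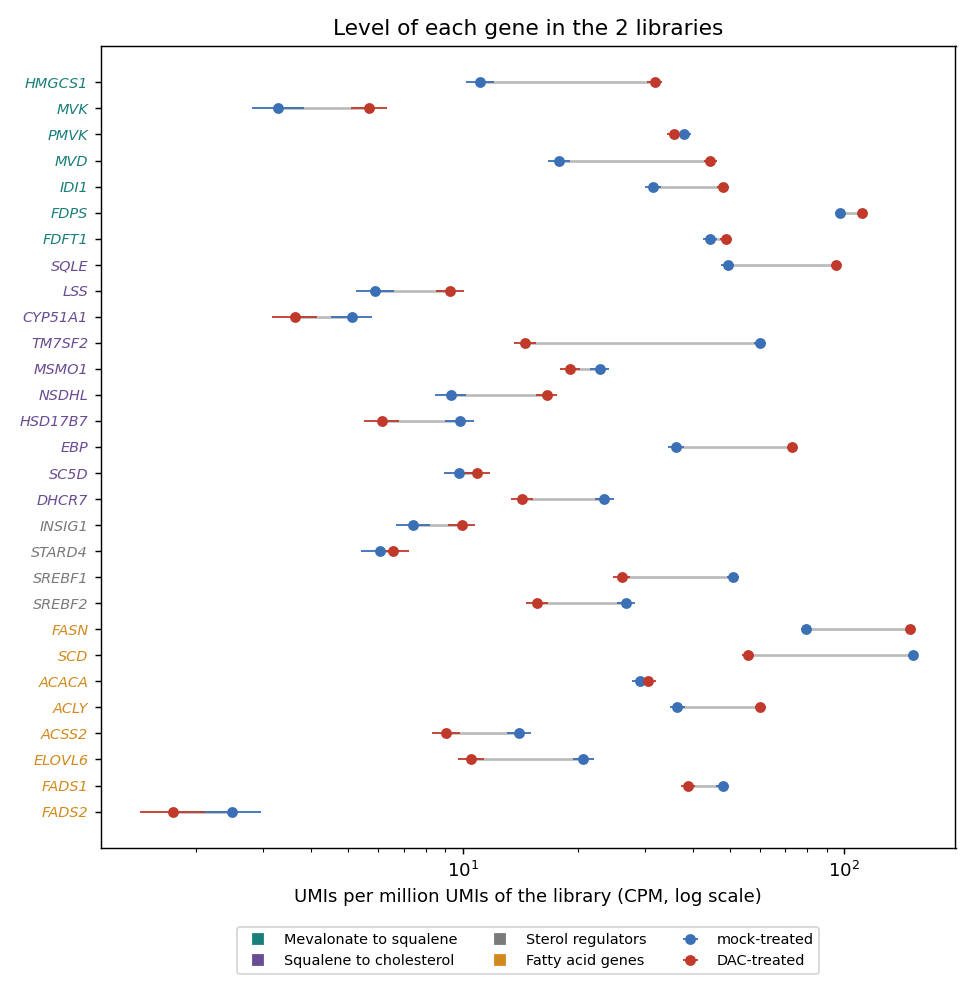
Level of each of the 29 genes in CPM (log scale) in the mock-treated (blue) and the DAC-treated library (red), in pathway order, with exact intervals for counting error; names are colored by branch. *HMGCS1*, *MVD*, *SQLE* and *EBP* lie to the right in DAC-treated cells, while *TM7SF2* moved from 60.1 to 14.5 CPM and *SCD* from 151 to 55.9 CPM.

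The 7 enzymes that lead from acetoacetyl-CoA to squalene were higher or little different in DAC-treated cells. Their median log2 CPM ratio was 0.61, with 4 at 1.5-fold or more higher (all genes, 29%) and none lower (all genes, 13.7%). *HMGCS1*, the synthase that forms HMG-CoA and the first gene of this list, changed from 555 UMIs (11.1 CPM) to 1880 UMIs (31.8 CPM) with DAC. This was a ratio of 2.86 (2.60 to 3.15), the highest of the 29 genes by these sums, and above 93.5% of all genes tested. *HMGCS1* ranked below *MVD* after thinning to 10000 UMIs, at a log2 ratio of 1.38 against 1.45. The same held without cells over 20% mitochondrial UMIs, at 1.35 against 1.38. *MVD*, the decarboxylase that makes isopentenyl diphosphate, had 891 UMIs (17.9 CPM) and 2631 UMIs (44.6 CPM), a ratio of 2.50 (2.31 to 2.70). Both genes were more than 2-fold higher. *MVK*, mevalonate kinase, had only 164 and 335 UMIs, with a ratio of 1.73 (1.43 to 2.09). *IDI1*, the isomerase that makes the other isoprenoid building block, had 1571 and 2834 UMIs, with a ratio of 1.52 (1.43 to 1.62), at the 1.5-fold limit. The remaining enzymes differed little. *PMVK*, the kinase between *MVK* and *MVD*, had a log2 CPM ratio of -0.087, *FDPS*, farnesyl diphosphate synthase, 0.19, and *FDFT1*, which joins farnesyl units into squalene, 0.14. All 3 of them were below the median gene. *FDPS* and *IDI1* have 8 and 3 annotated pseudogene copies, and reads may be split between such copies and the gene.

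The 10 enzymes from squalene to cholesterol went both ways. Their median log2 CPM ratio was -0.047, with 4 at 1.5-fold or more higher (all genes, 29%) and 3 lower (all genes, 13.7%). *SQLE*, the squalene epoxidase of the first oxygen-dependent step, had 2469 UMIs (49.5 CPM) and 5601 UMIs (94.9 CPM) in mock- and DAC-treated cells, a ratio of 1.92 (1.83 to 2.01). *EBP*, the isomerase that shifts the sterol double bond, had 1807 UMIs (36.2 CPM) and 4299 UMIs (72.8 CPM), a ratio of 2.01 (1.90 to 2.13). *NSDHL*, a C4 demethylation enzyme, had 464 and 981 UMIs, with a ratio of 1.79. By these sums the 3 genes were higher to a similar extent. In the cells lowest in cell cycle genes the ratios were 1.79 (1.36 to 2.33) for *SQLE*, 1.02 (0.611 to 1.62) for *EBP* and 0.701 (0.221 to 1.72) for *NSDHL*. *LSS*, which closes the sterol rings, had 294 and 546 UMIs, with a ratio of 1.57 (1.36 to 1.82). Relative to the median gene its log2 ratio was 0.44, short of 1.5-fold.

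*TM7SF2*, a C14 sterol reductase, showed the largest difference of the 29 genes. It had 2999 UMIs (60.1 CPM) and 859 UMIs (14.5 CPM) in the mock- and DAC-treated library, and was 4.13-fold (3.83 to 4.46) lower in DAC-treated cells. Only 0.994% of all genes tested had a lower ratio. A UMI was present in 61.6% of mock-treated and 26.4% of DAC-treated cells, and in 44.4% and 13.1% of cells thinned to 10000 UMIs. *TM7SF2* overlaps *VPS51* on the same strand, and *VPS51* had 2121 and 1978 UMIs, a log2 CPM ratio of -0.34. *LBR*, a nuclear membrane protein that catalyzes the same reduction, had 2033 and 2878 UMIs, a log2 CPM ratio of 0.26. *DHCR7*, the last reductase of one arm of the pathway, had 1173 and 844 UMIs with a ratio of 0.608 (0.556 to 0.665). *HSD17B7*, the ketoreductase of C4 demethylation, had 490 and 362 UMIs and was 1.60-fold (1.40 to 1.84) lower, and it has 3 pseudogene copies. Enzymes of the same C4 demethylation complex thus lay on both sides, with *NSDHL* higher, *HSD17B7* lower, and *MSMO1*, the C4 oxidase, at a log2 CPM ratio of -0.26. *CYP51A1*, the C14 demethylase that acts just before *TM7SF2*, had 256 and 215 UMIs, 3 pseudogene copies and a log2 CPM ratio of -0.49, and *SC5D*, the C5 desaturase, 0.16.

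**Figure D2:**
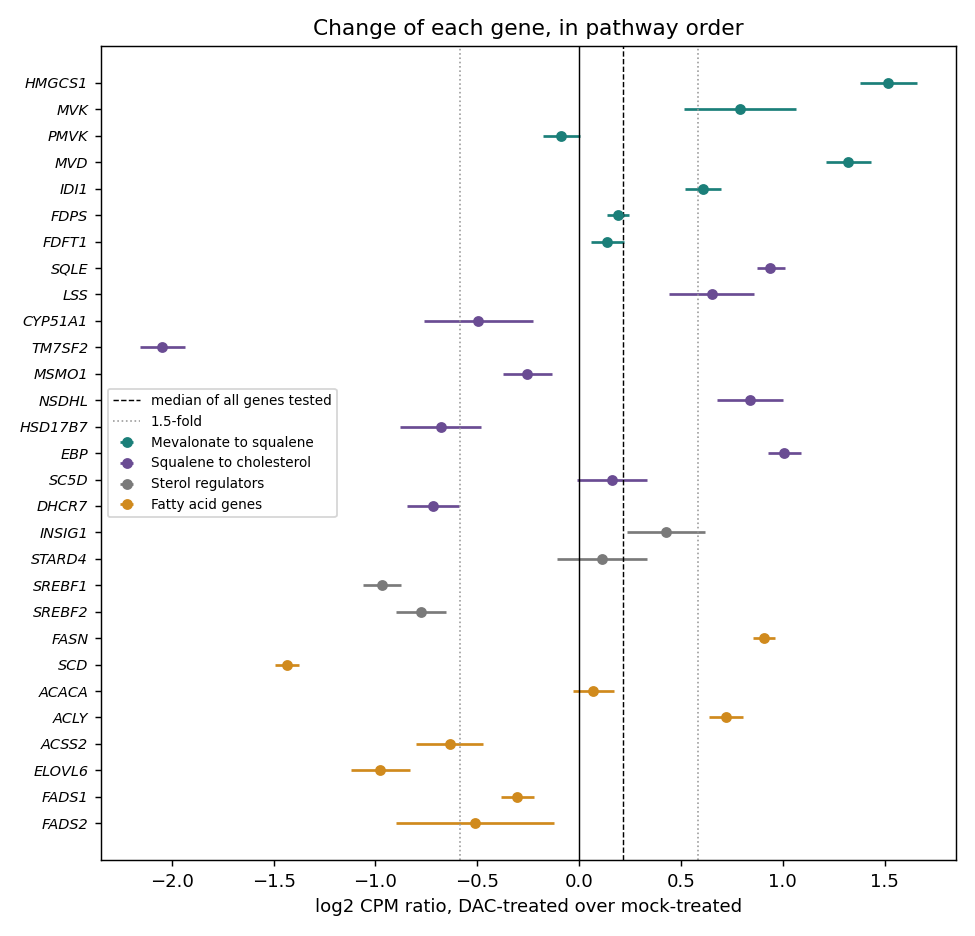
Log2 CPM ratio, DAC-treated over mock-treated, of each gene in pathway order, with intervals for counting error; the dashed line is the median of all genes tested and the dotted lines are 1.5-fold. The enzymes up to squalene lie at -0.087 or above, whereas later sterol enzymes range from -2.05 to 1.01 and fatty acid genes from -1.44 to 0.91.

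Of the 4 regulators, *SREBF1* and *SREBF2* were 1.5-fold or more lower by the sums over all cells, beside 13.7% of all genes. None was 1.5-fold or more higher by these sums, beside 29% of all genes. *SREBF1* had 2549 UMIs (51.1 CPM) and 1542 UMIs (26.1 CPM), with a ratio of 0.511 (0.480 to 0.545). Tags at the 3′ end cannot tell its SREBP-1a and SREBP-1c transcripts apart. *SREBF2* had 1338 UMIs (26.8 CPM) and 925 UMIs (15.7 CPM), and was 1.71-fold (1.57 to 1.86) lower. The ratio of *SREBF2* was near 1 in the cells with the fewest UMIs, 0.976 (0.672 to 1.39). RNA levels do not measure how much of either protein was processed. *INSIG1*, the SREBP target that retains the SCAP complex, had 370 and 588 UMIs, a ratio of 1.34 (1.18 to 1.53) and a log2 CPM ratio of 0.43. With the mean of per-cell CPM in place of the sum, the log2 ratio was 1.12 for *INSIG1* and 0.60 for *STARD4*, both past the 1.5-fold limit. *STARD4*, a sterol carrier, had 303 and 387 UMIs, a log2 CPM ratio of 0.11. The median of these 4 genes was -0.33.

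For the 8 fatty acid genes the median log2 CPM ratio was -0.41. Of them 2 were 1.5-fold or more higher (all genes, 29%) and 3 lower (all genes, 13.7%). *FASN*, fatty acid synthase, had 3964 UMIs (79.4 CPM) in mock-treated and 8799 UMIs (149 CPM) in DAC-treated cells, a ratio of 1.88 (1.81 to 1.95). *ACLY*, which makes cytosolic acetyl-CoA from citrate, had 1823 and 3552 UMIs, with a ratio of 1.65 (1.56 to 1.74). *ACACA*, the carboxylase that makes malonyl-CoA between these steps, had 1457 and 1807 UMIs and a log2 CPM ratio of 0.068. The other 5 genes of the list had ratios below 1. *SCD*, the desaturase that makes oleate, had 7547 UMIs (151 CPM) and 3300 UMIs (55.9 CPM), and was 2.71-fold (2.60 to 2.82) lower in DAC-treated cells. It has 1 annotated pseudogene copy. *ELOVL6*, the elongase of palmitate, had 1034 and 622 UMIs and was 1.97-fold (1.78 to 2.18) lower. *ACSS2*, which makes acetyl-CoA from acetate, had 701 and 534 UMIs and was 1.55-fold (1.39 to 1.74) lower. With the mean of per-cell CPM its log2 ratio was -0.27, short of the limit. The desaturases of polyunsaturated fatty acids, *FADS1* and *FADS2*, had log2 CPM ratios of -0.30 and -0.51. *FADS2* had only 124 and 103 UMIs and overlaps *FEN1* on the same strand, a replication gene with a log2 CPM ratio of 1.63.

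The median log2 CPM ratio was 0.19 for the 17 sterol enzymes and -0.41 for the fatty acid genes, a difference of 0.60. Relative to the median gene these were -0.024 and -0.62. The sterol enzymes summed to 476 CPM in mock-treated and 588 CPM in DAC-treated cells, a ratio of 1.24 (1.22 to 1.26). Without *TM7SF2*, the share of which changed from 12.6% to 2.47% of this sum, the ratio was 1.38. The fatty acid genes summed to 382 and 356 CPM, a ratio of 0.933 (0.915 to 0.951). This sum rested on *SCD* and *FASN*. *SCD* took 39.6% of it in mock- and 15.7% in DAC-treated cells, whereas *FASN* took 20.8% and 41.9%. Without *SCD* the ratio was 1.30, and without *FASN* it was 0.685, so the direction of the sum was set by which of them was counted.

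Other lists placed these values beside neighboring pathways, each with the genes of highest and lowest ratio. In all of them higher and lower are counted at 1.5-fold or more, beside 29% and 13.7% of all genes. No list was tested against these shares. Among 10 genes of SREBP processing, with a median log2 CPM ratio of 0.14, 1 was 1.5-fold higher and 1 lower, *C12orf49* at 1.40 and *MBTPS2*, the second protease, at -0.83. Among 12 other SREBP targets (median 0.28), 4 were 1.5-fold higher and none lower, from *TMEM97* at 1.30 to *RDH11* at -0.33. Among 13 genes that use isoprenoids (median 0.19), 3 were higher and 3 lower, from *ICMT* at 0.93 to *GGPS1* at -1.01. Of 7 targets of the oxysterol receptor LXR, 4 were measured (median 0.31), none was 1.5-fold higher and 1 was 1.5-fold lower, from *LPCAT3* at 0.41 to *NR1H3* at -0.78. Of 9 sterol transport genes (median -0.11), 1 was higher and 1 lower, from *NPC1* at 0.67 to *OSBPL9* at -0.61. Of 22 measured genes of other fatty acid steps (median 0.089), 4 were higher and 4 lower, from *FABP5* at 1.19 to *MLXIPL* at -1.30. Of 17 genes of fatty acid oxidation (median -0.38), 2 were higher and 5 lower, from *CPT1A* at 0.84 to *DECR1* at -1.17. Of 18 paralogs of the 29 genes, 11 were measured (median 0.37), 3 were higher and none lower. Among them *EBPL* was lowest at -0.52, and *ELOVL4* had no UMI in mock-treated and 259 UMIs in DAC-treated cells. *ELOVL4* was 1 of the 3 and entered the median as the highest ratio. With no UMI in mock-treated cells it was counted as measured through its DAC-treated UMIs alone. Its place among the higher genes was thus fixed by that limit and is no separate result. *ELOVL1*, an elongase of longer chains, was higher at 1.07, in contrast to *ELOVL6*.

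Values per cell were computed in 1298 mock-treated and 1120 DAC-treated cells with 10000 UMIs or more and at most 50% mitochondrial UMIs, each thinned to 10000 UMIs. A UMI of *HMGCS1* was present in 11.0% of mock-treated and 21.8% of DAC-treated cells (23.5% and 44.1% of all cells without thinning), and a UMI of *SCD* in 74.1% and 39.5% (77.0% and 56.5%). Since a single cell line was sequenced, there were no cells lacking these genes to give a background share. The 17 sterol enzymes summed to a mean of 4.83 UMIs in a mock-treated and 6.24 UMIs in a DAC-treated cell. Cells with 10 UMIs or more made up 5.47% and 14.6%. The median changed from 4 to 5 UMIs and the 90th percentile from 8 to 10 UMIs. The fatty acid genes summed to a mean of 3.90 and 3.65 UMIs, and cells above the 90th percentile of mock-treated cells made up 8.40% and 6.88%.

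**Figure D3:**
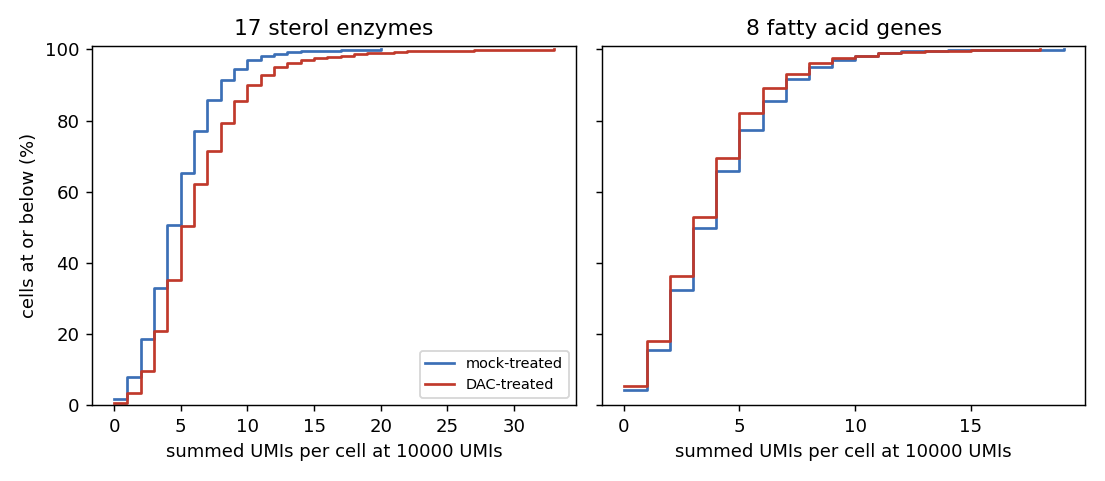
Cumulative share of cells (%) by summed UMIs per cell, after thinning to 10000 UMIs, for the 17 sterol enzymes and the 8 fatty acid genes in mock-treated (blue, 1298 cells) and DAC-treated cells (red, 1120 cells). The sterol curve of DAC-treated cells lies to the right and reaches 33 UMIs against 20 in mock-treated cells, while the fatty acid curves nearly coincide.

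The spread between cells was measured by the squared coefficient of variation in excess of Poisson sampling. For the summed sterol enzymes it was 0.102 in mock-treated and 0.202 in DAC-treated cells, and for the summed fatty acid genes it was 0.162 and 0.186. At a mean of at least 0.1 UMI there were 22 of the genes, and 17 of them had a higher value in DAC-treated cells, as did 69.8% of all 7854 genes of this level. The median of these 22 genes changed from 0.282 to 0.551 and that of all genes from 0.148 to 0.275. *HMGCS1* changed from 0.320 to 2.07 and *SQLE* from 0.202 to 0.967, whereas *FASN* changed from 0.396 to 0.257.

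Correlations between cells were weak, and in such sparse counts they are given as a description only. Spearman's rho of the summed sterol and fatty acid genes was 0.136 over 1298 mock-treated cells and 0.133 over 1120 DAC-treated cells, which share library and depth. At 20000 UMIs per cell, a depth added after seeing the data, it was 0.252 and 0.162. The summed S-phase and G2/M genes had a rho of 0.580 and 0.594, but at higher counts. Their means were 11.6 and 32.9 UMIs in a mock-treated and 27.8 and 74.9 UMIs in a DAC-treated cell. The strength of the 2 correlations is therefore not directly comparable. The early and late sterol enzymes had a rho of 0.127 and 0.148. Between single genes, the median rho was 0.019 and 0.038 among sterol enzymes (78 pairs), 0.037 and 0.038 among fatty acid genes (21 pairs), and 0.013 and 0.022 across the branches (91 pairs). All pairs of genes had a median of 0.003 and 0.004. The highest pair in mock-treated cells was *FASN* with *SCD* at 0.154, which was 0.078 in DAC-treated cells. In DAC-treated cells it was *SQLE* with *ELOVL6* at 0.125, which was 0.091 in mock-treated cells. *HMGCS1* with the sum of the other sterol enzymes had a rho of -0.018 in mock-treated and 0.158 in DAC-treated cells.

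The distribution of *HMGCS1* in DAC-treated cells had a long upper end. No mock-treated cell had more than 4 UMIs, which 13 cells had. In DAC-treated cells, 49 cells had 4 UMIs, 22 had 5, and 78 cells (4.45%, 3.54 to 5.53) had 5 or more, with a maximum of 68. These 78 cells held 35.9% of the *HMGCS1* UMIs of the library. They were chosen by this gene, after its values were seen, so its own level is not a result. In the 75 of them kept for cell-level values, compared with 1045 other DAC-treated cells, the CPM ratio was 2.86 (2.29 to 3.54) for *INSIG1*, 2.42 (2.05 to 2.84) for *MSMO1*, 2.39 (2.15 to 2.64) for *IDI1*, 2.33 (2.16 to 2.50) for *SQLE* and 2.18 (1.61 to 2.92) for *STARD4*. Of the 16 other sterol enzymes, 9 were 1.5-fold or more higher in these cells, beside 7.99% of all genes, and none was 1.5-fold or more lower, beside 4.77% of all genes. Their median ratio was 1.60. Of the 8 fatty acid genes, 2 were 1.5-fold or more higher, *SCD* at 1.84 and *ACSS2* at 1.60, and none was lower, with a median of 1.31. The median of all genes tested was 1.03. *TM7SF2* (0.964), *FDPS* (0.938) and *SREBF1* (1.11) had intervals that included 1, whereas *SREBF2* was at 1.57 (1.26 to 1.94). These cells had more UMIs (median 55191 against 46429) and a lower cell cycle sum (68 against 112). Their median share of mitochondrial UMIs was 21.1%, beside 18.3% over all cells of the DAC-treated library. The part of each of these in the ratios was not tested. In the remaining 1045 DAC-treated cells the CPM ratio of *HMGCS1* to mock-treated cells was 1.94 (1.75 to 2.16). The limit that left these cells was set on *HMGCS1* itself, so this value is no separate result. Without the 78 cells the log2 CPM ratio over the whole library was lower for each of *INSIG1* (0.24 in place of 0.43), *IDI1* (0.46 in place of 0.61) and *MSMO1* (-0.40 in place of -0.26).

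**Figure D4:**
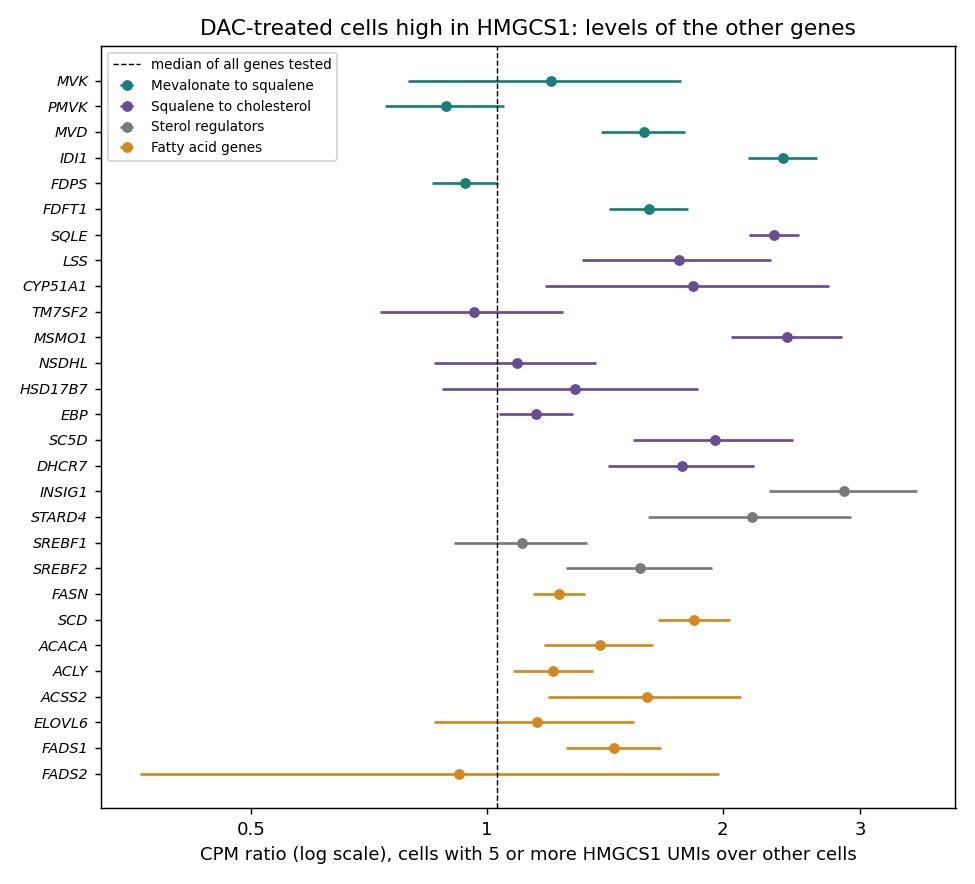
CPM ratio (log scale) of the other 28 genes in 75 DAC-treated cells with 5 or more *HMGCS1* UMIs over 1045 other DAC-treated cells, with intervals for counting error; the dashed line is the median of all genes tested, 1.03. *INSIG1*, *MSMO1*, *IDI1*, *SQLE* and *STARD4* lie above 2, while *TM7SF2*, *FDPS* and *PMVK* lie near 1.

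Cell cycle genes moved with treatment. Of 42 measured S-phase genes, 33 were 1.5-fold or more higher in DAC-treated cells, beside 29% of all genes, and none was lower by that much (median log2 CPM ratio 0.99, from *CLSPN* at 1.89 to *CDCA7* at -0.054), and so were 42 of 54 G2/M genes (median 0.86, from *CDCA3* at 1.93 to *CKS1B* at 0.0037). Their sum had a median of 21 UMIs in mock-treated and 110 UMIs in DAC-treated cells at 10000 UMIs per cell. When the cells were split at sums of 24 and 102, the low group held 766 mock-treated and 78 DAC-treated cells, the middle group 340 and 431, and the high group 192 and 611. The ratio of the summed sterol enzymes was 1.07 (0.957 to 1.18), 1.22 (1.15 to 1.29) and 1.26 (1.18 to 1.36) in these groups, and that of the fatty acid genes was 0.872, 0.963 and 1.03. *TM7SF2* was lower in every group (ratios 0.399, 0.332 and 0.419), and so was *SCD* (0.447, 0.500 and 0.501). *MVD* (2.16, 3.25 and 2.62), *SQLE* (1.79, 2.14 and 2.09) and *FASN* (1.59, 1.86 and 2.49) were higher in every group. *HMGCS1* had ratios of 3.02, 4.56 and 1.34, and the interval in the high group (0.903 to 2.03) included 1. *EBP* was not separated from mock-treated cells in the low group, with a ratio of 1.02 (0.611 to 1.62), and was 1.42 and 1.76 in the others. Of the 18 genes past 1.5-fold, 6 (*MVD*, *SQLE*, *FASN*, *TM7SF2*, *SCD* and *ELOVL6*) had an interval on the same side of 1 in all 3 groups. For the other 12 an interval included 1 in at least 1 group, mostly the low group with 78 DAC-treated cells, and the ratios of *IDI1* (1.08) and *HSD17B7* (0.942) in the low group and of *DHCR7* (0.933) in the high group were close to 1. The ratios of *MVK* and *NSDHL* fell on both sides of 1 between groups. That of *NSDHL* was 0.701 (0.221 to 1.72) in the low group, on 5 UMIs in DAC-treated cells, and every interval of *MVK* included 1. In groups split by total UMIs, 10 of the 18 had an interval on the same side of 1 in all 3 groups. The ratios of *MVK* and *LSS* fell on both sides of 1 there, and all their intervals included 1. *SREBF2*, at 0.976 in the shallowest cells, had a ratio of 0.701 in the middle and 0.486 in the deepest cells. The ratio of the sterol sum was 1.44, 1.28 and 1.23 from the shallowest to the deepest cells.

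**Figure D5:**
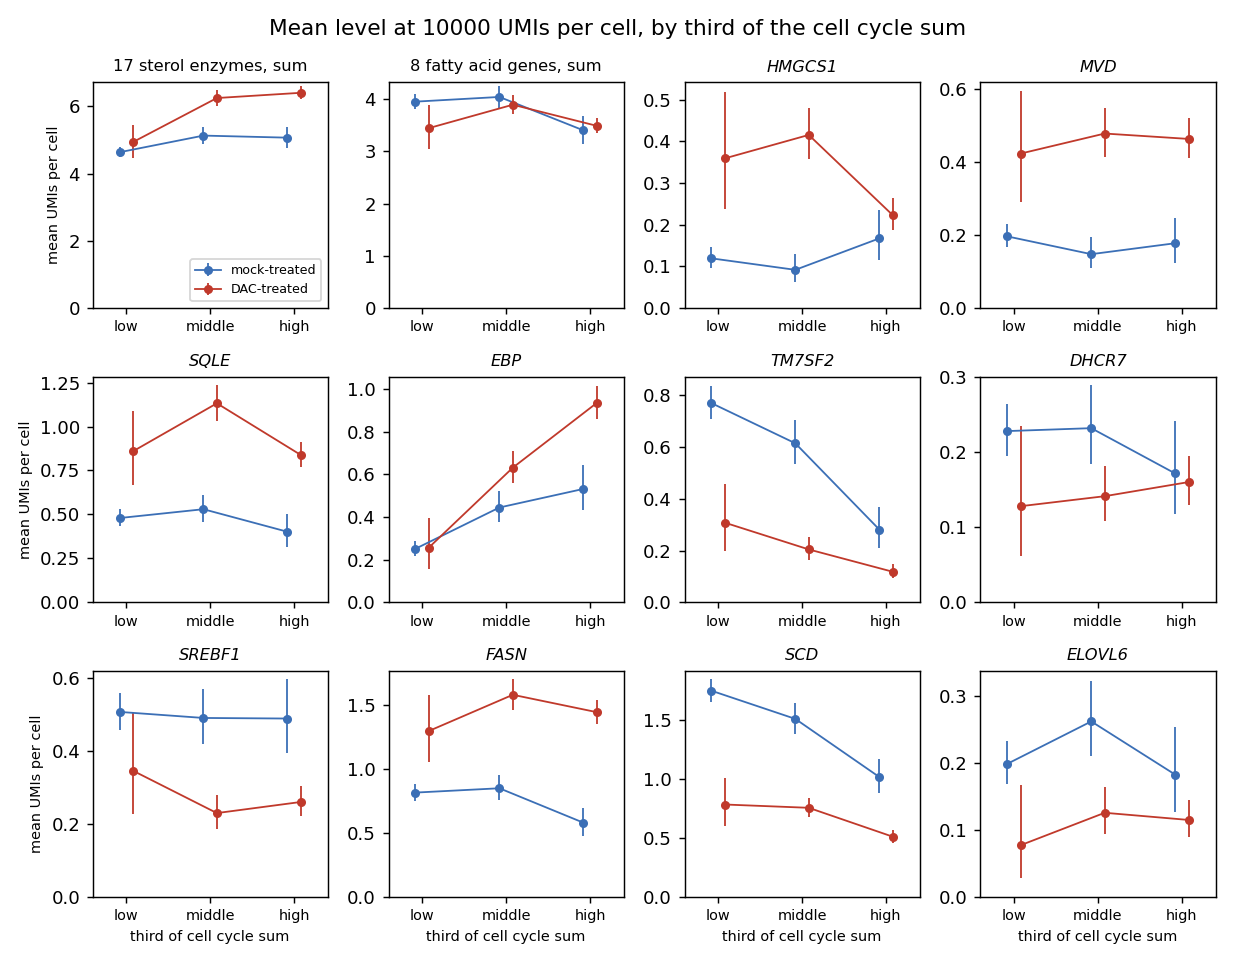
Mean UMIs per cell at 10000 UMIs for the branch sums and 10 genes in groups of low, middle and high cell cycle sum, in mock-treated (blue) and DAC-treated cells (red), with intervals for counting error. *TM7SF2* and *SCD* are lower and *MVD*, *SQLE* and *FASN* higher in DAC-treated cells in every group, while *HMGCS1* approaches mock-treated cells in the high group.

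Of 17 markers of other cell types, 10 had no UMI in mock-treated cells and 1 had none in DAC-treated cells, and they summed to 17.8 and 32.3 CPM, mostly *COL1A1* at 10.7 and 18.8 CPM (log2 CPM ratio 0.82) and *CD68* at 6.43 and 8.89 CPM (0.47). The part of cells of another type in the values above was not tested. The 6 epithelial markers with 200 UMIs or more ranged from *KRT18* at 1.08 to *CLDN4* at -1.67. A total of 12 barcodes were shared by both libraries.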

How the data were processed

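UMI counts of HCT116 cells were deposited by the authors as 1 table per condition, whole counts per gene and cell without normalization; reads had been mapped to hg38 and counted using Cell Ranger, and the annotation release was not given in the sources used here. UMIs were summed over all cells of a library and scaled to its total (CPM), with exact binomial intervals for ratios and Clopper-Pearson intervals for shares of cells. Genes with 200 UMIs or more over both libraries were counted as measured, and a gene was called past 1.5-fold without a test. Cells with 10000 UMIs or more and at most 50% mitochondrial UMIs were thinned to 10000 UMIs for values per cell. Doublets were not called. Positions and overlaps were from GENCODE release 44 and promoter windows from RefSeq. Python 3.11.15, numpy 2.4.6, scipy 1.17.1, pandas 2.3.3 and matplotlib 3.10.9 were used, and the scripts were tested on simulated data. All 29 genes were named, and of each other list the genes with the highest and lowest ratio, plus paralogs and overlapping genes. The genes and lists were chosen with earlier results of these data known, and the cells high in *HMGCS1* were chosen after seeing the data.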

Additional observations from a re-analysis of the deposited data

How the results depend on the processing

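Of the 29 genes, 24 kept the sign of their log2 CPM ratio under all 8 alternatives tried for single genes. Past 1.5-fold in all of them were 6 higher (*HMGCS1*, *MVD*, *SQLE*, *NSDHL*, *EBP* and *FASN*) and 7 lower (*TM7SF2*, *SCD*, *ELOVL6*, *SREBF1*, *SREBF2*, *DHCR7* and *HSD17B7*). The other 5 past 1.5-fold (*MVK*, *IDI1*, *LSS*, *ACLY* and *ACSS2*) missed that limit under at least 1 of them. The sign of *ACACA*, *FDFT1*, *FDPS*, *SC5D* and *STARD4* depended on the setting. The median of the 17 sterol enzymes, 0.19, was -0.024 with median-of-ratios scaling, which lowered every gene by 0.21, 0.30 with the mean of per-cell CPM, 0.31 without cells over 20% mitochondrial UMIs, 0.33 after thinning to 10000 UMIs and 0.40 without *TM7SF2*, the last chosen after seeing the data. The number of genes 1.5-fold higher was 6 with median-of-ratios scaling, and at 2-fold 3 were higher and 2 lower. *INSIG1* was at 1.12, *STARD4* at 0.60 and *ACSS2* at -0.27 with the mean of per-cell CPM. The difference between the branches stayed between 0.55 and 0.78. The Spearman correlation of both sums in mock-treated cells was 0.25 at 20000 UMIs per cell, also chosen after seeing the data, beside 0.16 in DAC-treated cells, so the near equality of both libraries at 10000 UMIs did not hold at that depth. Except for the scaling, the cause of these shifts was not tested. No paired analysis was possible because each condition had 1 library.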
